A study of Mus musculus with 18 samples.

Results

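The 30 genes described here encode enzymes that oxidise fatty acids in mitochondria and peroxisomes, proteins that deliver fatty acids to them, 3 peroxins and 2 regulators. They were taken by name from a list of pathway genes, drawn up with earlier results of these data known, and found by matching the Ensembl identifiers of the deposited tables to mouse gene symbols. All 30 were found among 55401 genes. Of these, 28 passed the filter on low values used for 16439 tested genes, which keeps genes that reach 1 FPKM in 2 or more libraries. The other 2, Cd36 and Ppara, were under 1 FPKM in every library. FPKM is a level per length of transcript, as fragments per kilobase scaled to the fragments mapped, so levels of different genes can be compared within a library.

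RNA was sequenced from 18 libraries of 9 groups, 2 per group, along a chemical reprogramming course from mouse embryonic fibroblasts (MEF) to pluripotent cells. The D0 group holds the fibroblasts, isolated from E13.5 embryos of the 129XOG2 background, used at passages 1 to 3 and grown with fetal bovine serum. The D2, D4, D6, D8, D10 and D12 groups hold the same kind of cells after that many days in reprogramming medium, whose composition the labels do not give. The riPSC group holds the reprogrammed pluripotent cells, from the same background. The mESC group holds R1 cells, a single embryonic stem cell line derived from a mouse blastocyst. The riPSC and mESC groups shared feeder cells and a medium listed without serum, with leukaemia inhibitory factor, CHIR99021 (a GSK3 inhibitor) and PD0325901 (a MEK inhibitor), so medium and cell state cannot be told apart when they are set against the course. Whether the 2 libraries of a group stem from separate cultures is not stated in the labels. The p-values therefore reflect the spread seen here between replicate libraries alone, and that spread may be technical.

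Mitochondrial beta-oxidation shortens acyl-CoA chains in repeated rounds of dehydrogenation, hydration, a second dehydrogenation and thiolysis. Long chains are first activated to acyl-CoA and carried across the inner membrane as acylcarnitines, and CPT1 is the regulated step of that entry. Electrons taken by the acyl-CoA dehydrogenases pass through electron transfer flavoprotein to the respiratory chain. Peroxisomes shorten very long and branched chains with a parallel set of enzymes, and this makes hydrogen peroxide, which catalase breaks down. Heart and liver are known to use these pathways heavily.

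The libraries differed in ways that touch every value below. The step that 1 read makes in single-exon genes gave depth estimates of 16.6 to 25.0 M read pairs in 17 libraries, which rest on telling the step of a read pair from that of a lone read. D2 replicate 2 gave a larger estimate, which was not settled. The D0 libraries stood apart, with 13751 and 16517 genes above 0 against 18712 to 23544 in the other libraries, and median-of-ratios size factors of 0.597 and 0.785 against 0.88 to 1.19. The part of this in the low D0 values, the zeros listed there and the differences from D0 was not tested. Replicates of a group lay apart by a median absolute log2 difference of 0.28 for D0, 0.243 for D2 and 0.184 for D4, and 0.0897 to 0.141 for the other groups. Mitochondrially encoded transcripts made up 0.437% and 1.89% of the FPKM sum in D0, 34.1% and 15.9% in D2, 6.42% and 12.4% in D4 and 44.2% and 35.4% in D6. They made up 50.2% to 52.4% in D8 and D10, 62.3% and 62.1% in D12 and 27.0% to 35.8% in riPSC and mESC. The part of this share in the levels below was not tested. The 8 fibroblast markers, none at 0 in any group, summed to 725 to 1160 FPKM in D0, 873 to 1300 FPKM in D2, 1980 to 2530 FPKM in D4 and 2650 to 2690 FPKM in D6. They then summed to 527 to 531 FPKM in D8, 409 to 424 FPKM in D10, 794 to 812 FPKM in D12 and 85.4 to 91.1 FPKM in riPSC. Muscle markers summed to 35.0 to 48.7 FPKM in D2, against 362 to 483 FPKM in D0. Myeloid markers summed to 16.4 to 17.2 FPKM in D2, against 104 to 116 FPKM in D0. The 8 pluripotency markers summed to 1410 to 1450 FPKM in D12, 4900 to 5190 FPKM in riPSC and 4140 to 4610 FPKM in mESC. The 10 endoderm markers summed to 495 to 518 FPKM in D8, 614 to 615 FPKM in D10 and 853 to 876 FPKM in D12, against 8.86 to 10.3 FPKM in riPSC and 3.29 to 4.46 FPKM in D0. These are bulk samples, in which fewer cells of a type and less RNA per cell cannot be told apart, and the part of these cell types in the results below was not tested.

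As a share of the FPKM sum of nuclear genes, the 30 members together made up 0.158% and 0.141% in D0, 0.391% and 0.402% in D12, 0.201% and 0.200% in riPSC and 0.162% in both mESC libraries. Fabp3 supplied 60.3% of the members' sum in both D12 libraries and 23.8% to 24.9% in riPSC. Without Fabp3 the share lay between 0.138% and 0.182% in all 18 libraries. The plot of all members by library shows genes with different courses within the pathway. Over the 9 groups, 27 of the 28 tested members differed by the moderated F test of limma, where 97.5% of all genes tested did. The exception was Pex7 (adjusted p = 0.143). By group mean, 7 members were highest in D12, 6 in D6, 4 in D10, 3 each in riPSC and mESC, 2 each in D2 and D8 and 1 in D0. Of all genes tested, 14.6% were highest in D12, 13.2% in D6, 8.3% in D10, 18.8% in riPSC and 12.5% in mESC. A further 6.07% were highest in D2, 7.65% in D8 and 9.78% in D0. Of the 28 members, 15 were lowest in D0, as were 49.1% of all genes tested, in the group with the fewest genes detected. Scaled by median of ratios instead, 9 members were highest in D12, 5 each in D6 and D0, and 9 were lowest in D0. Of all genes tested, that scaling put 16.6% highest in D12, 11.7% in D6 and 19.2% in D0, and 38.5% lowest in D0.

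**Figure D1:**
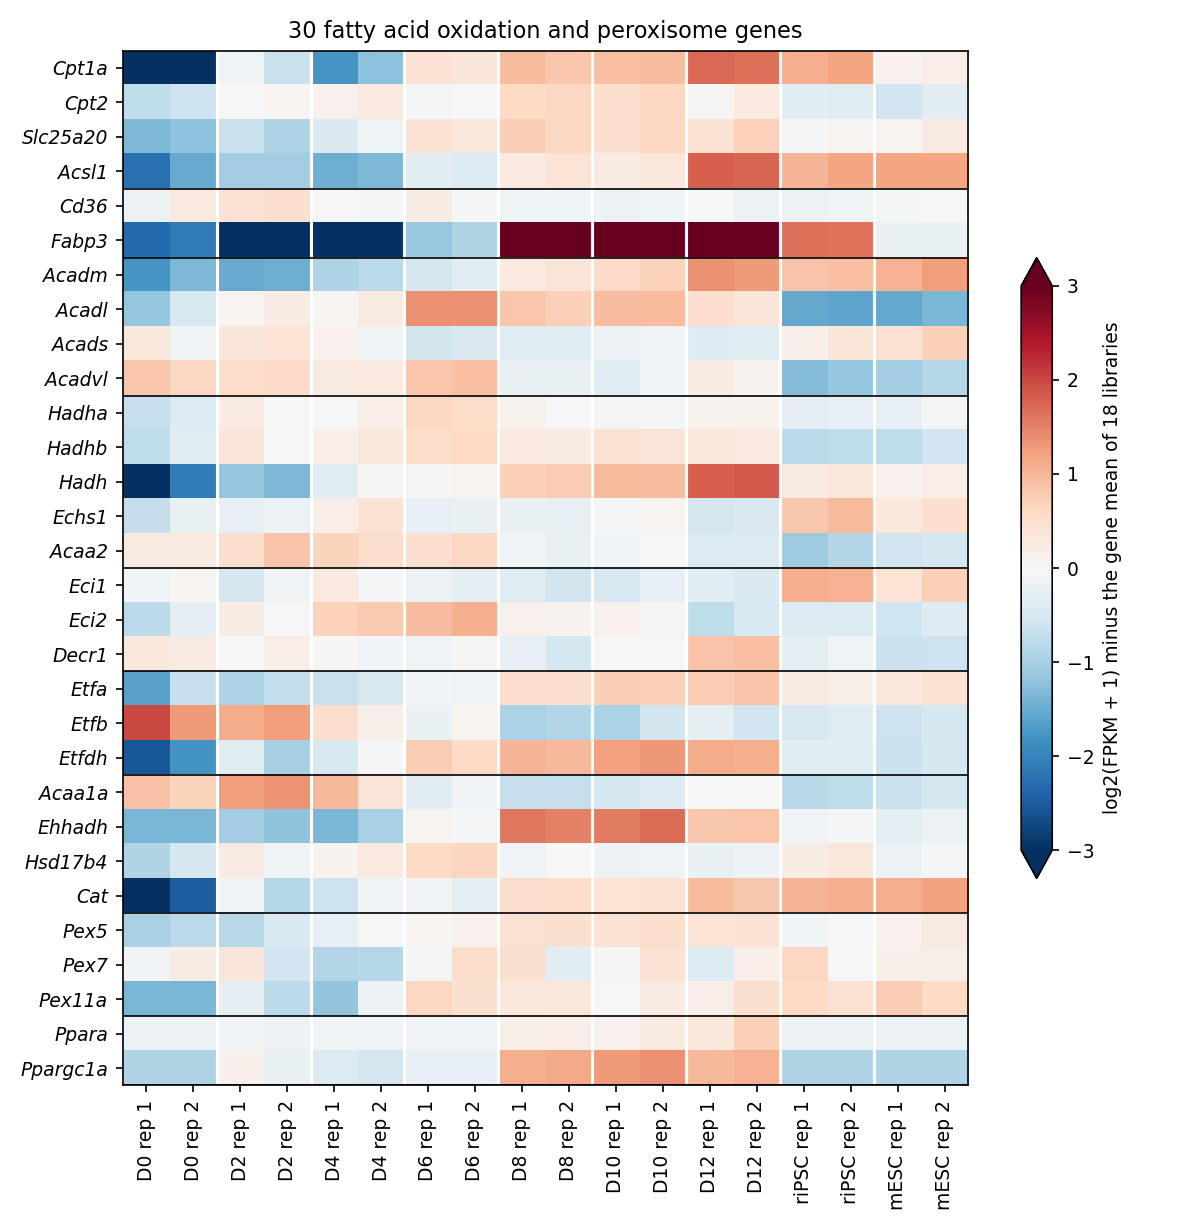
Levels of the 30 genes (rows, grouped by role: carnitine entry and activation, uptake and binding, acyl-CoA dehydrogenases, hydration to thiolysis, unsaturated chains, electron transfer, peroxisomal enzymes, peroxins, regulators) in 18 libraries (columns), as log2(FPKM + 1) minus the gene's mean over the 18 libraries, with colours capped at 3 either way. Fabp3 goes from the lowest colour in D4 to the highest in D8, D10 and D12, Etfb and Acaa1a are high early and low later, and Acadl and Acadvl are lowest in riPSC and mESC.

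For neighbouring groups, a call needed both a limma adjusted p below 0.05 and a change of 2-fold or more on the log2(FPKM + 1) scale, which understates the change of genes at low levels. In D2 against D0, 5 of 28 members rose and 1 fell, where 19.5% and 4.63% of all genes did (24.1% in either direction). The 5 were Cpt1a, Cat, Etfdh, Hadh and Acadl, and the one that fell was Fabp3. In D4 against D2, Hadh rose and Cpt1a and Fabp3 fell (1 and 2 of 28, against 5.66% and 4.48% of all genes and 10.1% in either direction). In D6 against D4, 7 members rose and 0 fell (11.6% and 6.86% of all genes, 18.5% in either direction), and the 7 were Fabp3, Cpt1a, Pex11a, Acadl, Ehhadh, Pex7 and Acsl1. In D8 against D6, Fabp3, Ehhadh and Ppargc1a rose and Acadvl fell (3 and 1 of 28, against 15.1% and 11.3%, and 26.4% in either direction). In D10 against D8, limma called 0 of 28 members in either direction, as it also did with a trended prior, 1 member had an unadjusted p under 0.05, and of all genes 0.426% were called higher, 2.43% lower and 2.86% in either direction. In D12 against D10, Acsl1 and Fabp3 rose and 0 fell (2 of 28, against 6.01% and 4.68%, and 10.7% in either direction).

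The share of members called was near that of all genes or below it in every step but D6. The median log2 difference of the 28 members in the 6 steps from D2 to D12 was 0.50, -0.02, 0.36, 0.06, 0.11 and -0.01, beside 0.24, 0.04, 0.07, 0.08, -0.01 and -0.06 for all genes. By median of ratios the members' medians were 0.16, -0.11, 0.31, -0.01, 0.14 and 0.10, beside 0.05, 0.00, 0.05, 0.03, 0.01 and 0.00 for all genes. With the length trend removed the members' medians were 0.12, -0.13, 0.17, -0.09, 0.14 and 0.04, so the 0.50 of D2 depended on the scaling. The calls at D2 rest on the spread shared with the other groups. In a fit of the D2 and D0 libraries alone 0 of the 6 were called, and 88 of all genes were. For D4 against D2 such a fit called 1 member and 337 of all genes, and for D6 against D4 it called 5 members and 2872 of all genes. Without D4 replicate 1 the count at D6 was 3. Scaling also moved the splits. With median-of-ratios scaling 0 members rose and 2 fell at D4, and with scaling to the nuclear sum 1 rose and 1 fell at D4, 3 rose and 3 fell at D8 and 1 rose and 1 fell at D12. Quantile normalization and removal of the length trend each left 2 that rose and 1 that fell at D2. Of all genes, median-of-ratios scaling called 2438 higher and 1542 lower in D2 against D0, where the values as deposited gave 3204 and 761, and 728 higher and 939 lower in D4 against D2, where they gave 930 and 737. In D2 against D0 quantile normalization called 1622 higher and 1449 lower, and removal of the length trend 1661 and 1328. In D4 against D2 the scaling to the nuclear sum called 1294 higher and 553 lower. In D8 against D6 it called 2139 higher and 2242 lower, where the values as deposited gave 2486 and 1862. In D6 against D4 quantile normalization called 1439 higher and 1291 lower, where the values as deposited gave 1910 and 1127. In D12 against D10 the scaling to the nuclear sum called 697 higher and 1269 lower, where the values as deposited gave 988 and 769.

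The 4 genes of activation and carnitine entry all had their lowest mean in D0. Cpt1a, the carnitine palmitoyltransferase that makes acylcarnitine on the outer membrane, measured 0.881 and 0.836 FPKM in D0, 15.7 and 10.4 FPKM in D2, 4.33 and 6.77 FPKM in D4 and 23.6 and 22.4 FPKM in D6. It went on to 33.8 and 31.4 FPKM in D8, 32.9 and 33.8 FPKM in D10 and 58 and 55.6 FPKM in D12, and stood at 37.6 and 39.98 FPKM in riPSC and 18.8 and 19.98 FPKM in mESC. Both D0 libraries lay below every other library, both D12 libraries above, and D4 dipped below D2 without overlap. The log2 difference was 2.89 ± 0.18 in D2 against D0 (± SE, adjusted p = 1.37e-07), -1.10 ± 0.18 in D4 against D2 (adjusted p = 0.00065) and 1.90 ± 0.18 in D6 against D4 (adjusted p = 4.34e-06). The fall at D4 was -0.83, no longer a call, without D2 replicate 1 or without D4 replicate 1. In D12 against D10 the difference was 0.75 ± 0.18 (adjusted p = 0.0062), short of 2-fold.

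Acsl1, a long-chain acyl-CoA synthetase that activates fatty acids, followed at a lower level. It was listed at 0 and 0.658 FPKM in D0 and stayed at 0.695 to 1.27 FPKM in D2 and D4, then measured 2.71 and 2.52 FPKM in D6, 4.77 and 5.23 FPKM in D8, 4.53 and 4.99 FPKM in D10 and 15.4 and 14.7 FPKM in D12. The riPSC libraries had 8.49 and 9.70 FPKM and the mESC libraries 9.66 and 9.72 FPKM. It was highest in D12, which did not overlap any other group. The rise was 1.48 ± 0.18 in D12 against D10 (adjusted p = 4.24e-05). The rise of 1.03 ± 0.18 at D6 (adjusted p = 0.000481) was 0.97 without D4 replicate 1 and 0.99 without D6 replicate 1, short of 2-fold. Slc25a20, the carnitine-acylcarnitine carrier of the inner membrane, measured 7.35 and 8.04 FPKM in D0 and 25.2 to 34.4 FPKM from D6 to D12, with no step past 2-fold. Cpt2, which turns acylcarnitine back into acyl-CoA inside the mitochondrion, stayed within 5.96 and 17.2 FPKM in all libraries and was called in none of the 9 comparisons.

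The promoters of Cpt1a and Cat are shown because these were the members with the 2 largest rises in D2 against D0. They are the stretches before the annotated transcript start that hold no annotated exon, from RefSeq on GRCm38.p6. Capitals mark the nuclear receptor hexamer AGGTCA, which reads TGACCT on the other strand, and the GC box GGGCGG, which reads CCGCCC there.
Cpt1a, chr19:3323051-3323284, plus strand: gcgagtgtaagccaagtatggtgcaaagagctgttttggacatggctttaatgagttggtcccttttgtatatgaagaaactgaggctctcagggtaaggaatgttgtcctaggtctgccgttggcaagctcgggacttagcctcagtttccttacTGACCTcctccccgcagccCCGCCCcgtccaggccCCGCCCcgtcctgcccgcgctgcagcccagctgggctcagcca
Cat, chr2:103485161-103485403, minus strand: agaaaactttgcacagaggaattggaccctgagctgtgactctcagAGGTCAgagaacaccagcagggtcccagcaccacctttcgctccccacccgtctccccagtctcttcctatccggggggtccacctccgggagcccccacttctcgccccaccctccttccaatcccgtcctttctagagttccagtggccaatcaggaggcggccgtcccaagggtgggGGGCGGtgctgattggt
The Cpt1a stretch held 1 hexamer and 2 GC boxes, and the Cat stretch 1 of each. A match describes letters, and no binding was measured.

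Fabp3, the heart-type fatty acid binding protein that carries fatty acids through the cytosol, had the widest range of all members in FPKM. It measured 14 and 16.5 FPKM in D0, 4.73 and 4.13 FPKM in D2, 1.12 and 0.878 FPKM in D4 and 33.4 and 39.3 FPKM in D6. In D8 it reached 768 and 801 FPKM, in D10 624 and 707 FPKM and in D12 1506 and 1494 FPKM. The riPSC libraries had 235 and 233 FPKM and the mESC libraries 64.5 and 64.9 FPKM. No group overlapped another: the low point was D4, and the D12 libraries were higher than all others. Fabp3 fell by 1.57 ± 0.12 in D2 against D0 (adjusted p = 7.22e-07) and by 1.44 ± 0.12 in D4 against D2 (adjusted p = 3.13e-06). It rose by 4.22 ± 0.12 at D6 (adjusted p = 3.63e-10), by 4.4 ± 0.12 at D8 (adjusted p = 4.11e-11) and by 1.17 ± 0.12 at D12 (adjusted p = 9.73e-06). Scaled to the nuclear sum the rise at D12 was 0.90, short of 2-fold. Muscle also makes Fabp3. The 9 muscle markers summed to 362 to 483 FPKM in D0, 11.2 to 15.2 FPKM in D4 and 27.1 to 30.1 FPKM in D6. They summed to 8.06 to 9.26 FPKM in D8 and at most 10.6 FPKM in D12, with Myog listed at 0 from D6 to D12. At D6 the markers Acta1 (2.18 ± 0.17) and Des (1.98 ± 0.20) rose and Myl4 fell (-1.11 ± 0.23). Acta1 fell at D8 (-2.35 ± 0.17), and Tnnt1 rose at D12 (1.92 ± 0.20). The endoderm sums were also highest in D8, D10 and D12. At D6, where Fabp3 rose too, they were 52.7 to 55.1 FPKM, against 61.2 to 89.8 FPKM in D4. The part of muscle or endoderm cells in the level of Fabp3 was not tested.

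Of the exon bases of Fabp3 (chr4:130308595-130315463, plus strand), 19.6% are shared with genes on the other strand, mainly Zcchc17, and whether the counting used strand is not given in the sources used here. Zcchc17 measured 14.7 and 13.8 FPKM in D12 and 63.3 and 45.8 FPKM in D0, the opposite order. The processed pseudogene Fabp3-ps1 reached 6.28 FPKM at most. Cd36, a fatty acid uptake receptor at the cell surface, was at or under 0.598 FPKM in every library and was not tested. The 7 adipocyte markers summed to at most 9.21 FPKM, with 3 to 5 of 7 listed at 0 in every group, Lep and Cfd among them. One of them, Lpl, the lipoprotein lipase, rose at D4, where Fabp3 fell, and at D8 (1.38 ± 0.10, adjusted p = 2.24e-07), where Fabp3 rose. It measured 6.06 and 5.96 FPKM in D8 against 1.88 and 1.53 FPKM in D6. At D6, where Fabp3 also rose, Lpl had a difference of -0.88 ± 0.10, short of 2-fold.

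**Figure D2:**
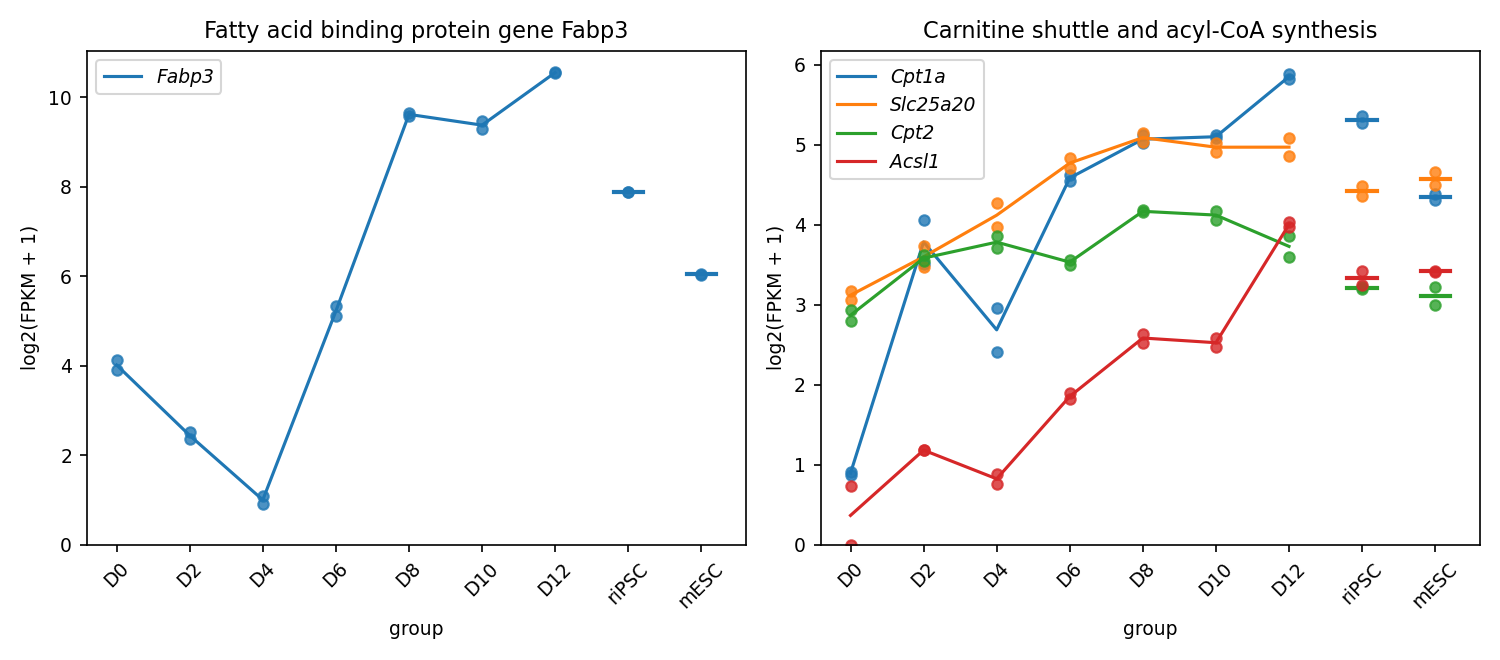
Levels of Fabp3 (left) and of the carnitine shuttle genes and Acsl1 (right) as log2(FPKM + 1) by group, with 1 point per library, a line through the group means of the course, and bars at the means of riPSC and mESC. Fabp3 is lowest in D4 and highest in D12, and Cpt1a and Acsl1 also have their highest level in D12, above riPSC and mESC.

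Other genes of fatty acid handling, listed by pathway, moved in both directions. Of 10 other tested transport and binding genes, 3 fell in D2 against D0 and 0 rose. Fabp5, the epidermal-type binding protein, alternated: it measured 53.7 and 57.7 FPKM in D2, 183 and 194 FPKM in D4, 63.8 and 68.1 FPKM in D6, 132 and 134 FPKM in D8 and 53.3 and 51.8 FPKM in D10. Fabp2, the intestinal type, rose in D12, with 6.99 and 8.27 FPKM against 0.311 and 0.680 FPKM in D10. Of 24 other genes of mitochondrial fatty acid oxidation, 4 rose and 0 fell at D2, 2 rose and 1 fell at D4, 3 rose and 1 fell at D6, 4 rose and 2 fell at D8, 0 moved at D10 and 2 fell at D12. The largest rise at D8 was that of Slc22a5, the plasma membrane carnitine transporter OCTN2. It was at 0 and 0.726 FPKM in D0, 6.93 and 5.99 FPKM in D6, 68.3 and 66.8 FPKM in D8, 53.4 and 55.2 FPKM in D10 and 27.6 and 27.4 FPKM in D12, and at 3.48 and 3.96 FPKM in riPSC. The rise at D8 was 3.20 ± 0.22 (adjusted p = 1.13e-07). Cpt1c, a brain-type CPT1 of the endoplasmic reticulum, was highest in D6, at 46.7 and 49.9 FPKM against 20.6 and 20.7 FPKM in D4, and fell by 1.62 ± 0.13 at D8.

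Among the acyl-CoA dehydrogenases, which start each round on chains of a given length, the genes of the medium-chain and very-long-chain enzymes differed in opposite directions between the ends of the course and at D8. Acadm, the medium-chain enzyme, measured 6.72 and 9.32 FPKM in D0, 12.8 and 13.9 FPKM in D4, 31.1 and 33.5 FPKM in D8 and 67.1 and 62.4 FPKM in D12, with 46.4 and 48.1 FPKM in riPSC and 53 and 61.3 FPKM in mESC. Acadvl, the very-long-chain enzyme bound to the inner membrane, measured 45.6 and 39.2 FPKM in D0, 30.6 and 31.4 FPKM in D4, 45.8 and 48.1 FPKM in D6, 21.5 and 21.6 FPKM in D8, 20.04 and 24 FPKM in D10 and 29.8 and 27.4 FPKM in D12, and only 9.75 and 10.9 FPKM in riPSC and 12 and 13.5 FPKM in mESC. Acadm was lower in D0 than in riPSC and Acadvl higher, with no overlap between D0 and riPSC for either. In D6 against D4 and in D12 against D10 both had positive differences, none of them called: 0.58 ± 0.11 and 0.37 ± 0.11 for Acadvl, and 0.43 ± 0.13 and 0.70 ± 0.13 for Acadm. Within a library the ratio of Acadm to Acadvl was 0.148 and 0.237 in D0, 0.381 and 0.402 in D6, 1.45 and 1.55 in D8, 2.25 and 2.28 in D12, 4.76 and 4.42 in riPSC and 4.4 and 4.53 in mESC. Such a ratio is unchanged when a library is scaled by a single factor. Quantile normalization and removal of the length trend can change it. Acadm passed 2-fold in no single step, its largest being 0.78 ± 0.13 at D8 (adjusted p = 0.000313), while Acadvl fell at D8 (log2 difference -1.09 ± 0.11, adjusted p = 5.41e-06).

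Acadl, the long-chain enzyme, had a hump. It measured 8.31 and 13.9 FPKM in D0, 20.9 and 24.2 FPKM in D4, 53.1 and 53 FPKM in D6, 36.4 and 33.4 FPKM in D8 and 28.8 and 26 FPKM in D12, and 6.25 and 6.02 FPKM in riPSC and 6.18 and 7.05 FPKM in mESC. It was highest in D6, and riPSC and mESC lay below every library of the course. Its rise at D6 was 1.20 ± 0.18 (adjusted p = 0.000142). Its rise at D2, 1.00 ± 0.18 (adjusted p = 0.000508), was at the threshold and was 0.66 without D0 replicate 1, 0.92 without D2 replicate 2 and 0.60 with median-of-ratios scaling, none of them calls. Acads, the short-chain enzyme, stayed between 23.4 and 57.8 FPKM and was called in none of the 9 comparisons. Acadvl shares 42.9% of its exon bases with Dvl2 on the other strand, and Dvl2 moved the other way, at 45 and 47.7 FPKM in riPSC and 8.93 and 12.4 FPKM in D0.

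The promoters of Acadm and Acadvl are shown because these genes differed in opposite directions in riPSC against D0. Each is the 250 bases before the start, and each held 1 nuclear receptor hexamer and no GC box.
Acadm, chr3:153944644-153944893, minus strand: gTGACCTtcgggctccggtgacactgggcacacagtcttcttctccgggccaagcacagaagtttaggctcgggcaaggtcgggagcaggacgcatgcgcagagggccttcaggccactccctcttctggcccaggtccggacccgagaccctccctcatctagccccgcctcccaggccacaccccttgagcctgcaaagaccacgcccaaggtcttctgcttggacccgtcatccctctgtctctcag
Acadvl, chr11:70015429-70015678, minus strand: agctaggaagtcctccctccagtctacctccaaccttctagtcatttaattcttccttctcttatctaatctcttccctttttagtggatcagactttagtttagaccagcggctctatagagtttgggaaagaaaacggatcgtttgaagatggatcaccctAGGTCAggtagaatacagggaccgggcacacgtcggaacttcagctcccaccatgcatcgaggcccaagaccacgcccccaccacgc
The hexamer is therefore in the promoters of both genes, so these letters do not tell the genes apart.

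**Figure D3:**
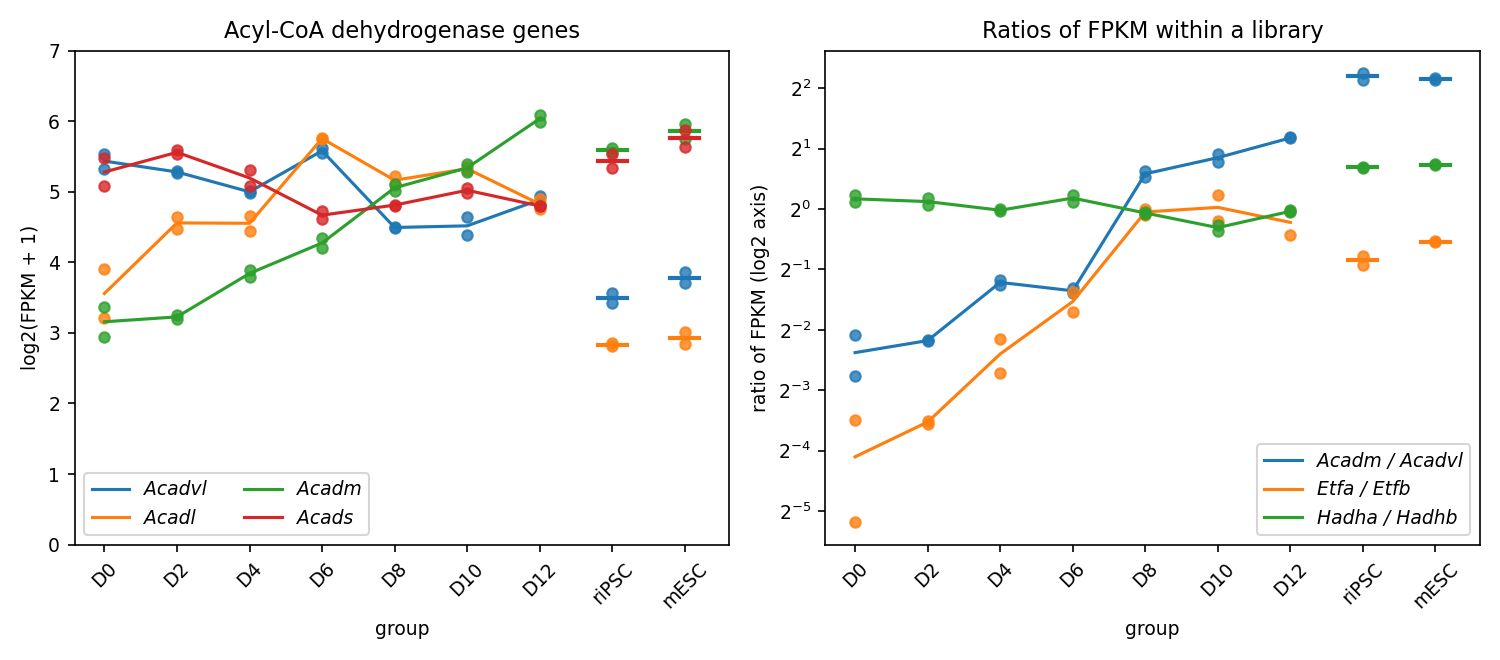
Left, levels of the 4 acyl-CoA dehydrogenase genes as log2(FPKM + 1) by group, with 1 point per library, a line through the group means of the course and bars at the means of riPSC and mESC. Right, ratios of FPKM of gene pairs within each library on a log2 axis. Acadm to Acadvl is 4.76 and 4.42 in riPSC, against 0.148 and 0.237 in D0, and Hadha to Hadhb is higher in riPSC and mESC than in any library of the course.

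The mitochondrial trifunctional protein, which carries out the last 3 reactions on long chains, has an alpha subunit encoded by Hadha and a beta subunit encoded by Hadhb. Both genes lie head to head on chromosome 5, 85 bases apart. That stretch is shown because both genes can start from it.
Hadha-Hadhb, chr5:30155163-30155247, plus strand: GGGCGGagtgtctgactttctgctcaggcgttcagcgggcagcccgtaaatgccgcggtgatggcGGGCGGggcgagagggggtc
It holds 2 GC boxes, in capitals, and Hadha runs to the left of it and Hadhb to the right. Over the course both genes stayed close: the ratio of Hadha to Hadhb was 0.782 to 1.18 in the 14 libraries from D0 to D12. In riPSC it was 1.6 and 1.63 and in mESC 1.65 and 1.67, above every library of the course. Hadhb measured 16.5 and 16.8 FPKM in riPSC and 36.3 and 36 FPKM in D12, and Hadha 26.4 and 27.3 FPKM in riPSC and 35.1 and 35.4 FPKM in D12. By group mean both were highest in D6, with 50.7 and 48.2 FPKM for Hadha and 43.0 and 44.4 FPKM for Hadhb. Neither gene was called in a step of the course.

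Hadh, the short-chain 3-hydroxyacyl-CoA dehydrogenase of the matrix, climbed through the whole course. It measured 5.56 and 12 FPKM in D0, 24.2 and 21 FPKM in D2, 43.9 and 56.9 FPKM in D4, 91.8 and 94.1 FPKM in D8 and 192 and 200.2 FPKM in D12, and 65.2 and 70.4 FPKM in riPSC and 59.9 and 62.9 FPKM in mESC. D12 stood above all other libraries, and riPSC and mESC fell among the values from D4 to D8. The ratio of Hadh to Hadha was 5.48 and 5.65 in D12, 2.47 and 2.58 in riPSC and 0.281 and 0.497 in D0. The rise at D2 was 1.35 ± 0.23 (adjusted p = 0.000461), 0.86 without D0 replicate 1, and the rise at D4 was 1.11 ± 0.23 (adjusted p = 0.00342), 0.93 without D4 replicate 2, so both lost the call without 1 library. With median-of-ratios scaling they were 0.97 and 0.98. Echs1, the short-chain enoyl-CoA hydratase, kept to 19.5 to 44.6 FPKM over the course and measured 58 and 64.5 FPKM in riPSC and 41.3 and 47 FPKM in mESC. Acaa2, the matrix thiolase, measured 49 and 61.5 FPKM in D2, 25.3 and 25 FPKM in D12, 15.5 and 17.9 FPKM in riPSC and 22.3 and 23 FPKM in mESC, lowest in riPSC.

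Another 3 members handle double bonds in unsaturated chains, and none was called in a step of the course. Eci1, a delta3,delta2-enoyl-CoA isomerase, stayed at 12 to 22.2 FPKM from D0 to D12 and measured 39.4 and 37.8 FPKM in riPSC and 24.1 and 30.03 FPKM in mESC, above all of the course. The fibroblast sums were highest in D6 and lower in D8. By group mean Acadl, Acadvl, Hadha, Hadhb, Hsd17b4 and Eci2 were also highest in D6. The part of fibroblasts in the levels of these genes was not tested. Eci2, a counterpart found in mitochondria and peroxisomes, peaked at 62.3 and 68.8 FPKM in D6 and was back at 18.8 and 23.1 FPKM in D12, close to the 18.6 and 26.4 FPKM of D0. Decr1, the mitochondrial 2,4-dienoyl-CoA reductase, was highest in D12 at 14 and 14.6 FPKM and lowest in mESC at 4.34 and 4.39 FPKM, with 5.96 and 6.67 FPKM in riPSC.

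The genes of both subunits that take electrons from the dehydrogenases differed in opposite directions in riPSC against D0. Etfa and Etfb encode the alpha and beta subunits of electron transfer flavoprotein, which act as a heterodimer. Etfa measured 14.2 and 27.9 FPKM in D0, 43.4 and 42.1 FPKM in D6, 66.5 and 64.9 FPKM in D8, 78.1 and 83.6 FPKM in D12 and 53.8 and 52 FPKM in riPSC. Etfb measured 514 and 314 FPKM in D0, 113 and 137 FPKM in D6, 66.6 and 69.3 FPKM in D8, 65.7 and 86.9 FPKM in D10, 106 and 85.5 FPKM in D12 and 91.7 and 99.4 FPKM in riPSC. The ratio of Etfa to Etfb was 0.0275 and 0.0889 in D0, 0.0853 and 0.0882 in D2, 0.384 and 0.308 in D6, 0.999 and 0.936 in D8, 0.74 and 0.977 in D12 and 0.586 and 0.524 in riPSC. The levels were closest to each other from D8 to D12. They were farthest apart in D0 replicate 1, while D0 replicate 2 was close to both D2 libraries. Both genes had a higher mean in D12 than in D8. Neither gene was called in a step, and 58.2% of the exon bases of Etfb overlap Gm45233 and Mir7051 on the same strand, which reached 6.25 FPKM at most. Etfdh, the oxidoreductase that hands the electrons to ubiquinone, measured 1.45 and 3.11 FPKM in D0, 9.97 and 6.18 FPKM in D2, 22.6 and 20.4 FPKM in D6, 32.2 and 33.9 FPKM in D10, 29.96 and 29.3 FPKM in D12 and 10.4 and 10.22 FPKM in riPSC. It was lowest in D0 and highest in D10. It rose by 1.48 ± 0.23 at D2 (adjusted p = 0.000238), a call lost with quantile normalization (0.82) and with the length trend removed (0.86).

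Of the peroxisomal enzymes, catalase rose and the thiolase declined. Cat, which breaks down hydrogen peroxide, measured 0.564 and 2.34 FPKM in D0, 16.7 and 9.33 FPKM in D2, 26.2 and 26.7 FPKM in D8, 35.2 and 31.9 FPKM in D12, 37.3 and 38.8 FPKM in riPSC and 38.9 and 42.2 FPKM in mESC. All libraries after D0 lay above both D0 libraries, and riPSC and mESC above all of the course. Its rise at D2 was 2.56 ± 0.31 (adjusted p = 3.35e-05). Acaa1a, the peroxisomal 3-ketoacyl-CoA thiolase, measured 113 and 97.7 FPKM in D0, 147 and 157 FPKM in D2, 48.9 and 57.1 FPKM in D6, 37.2 and 37.3 FPKM in D8, 61.7 and 61.1 FPKM in D12 and 33.6 and 35.5 FPKM in riPSC. It was highest in D2, and no single step was called. Acaa1b is a near-identical copy, at 0.868 to 10.9 FPKM, so reads between them are uncertain.

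Ehhadh, the peroxisomal bifunctional enzyme and a well-known target of PPAR alpha, was listed at 0 in both D0 libraries and was at most 0.329 FPKM through D4. It then measured 1.75 and 1.504 FPKM in D6, 6.76 and 6.45 FPKM in D8, 6.63 and 7.25 FPKM in D10 and 3.52 and 3.63 FPKM in D12, and 1.41 and 1.49 FPKM in riPSC. The D8 and D10 libraries were the highest and did not overlap the others. The rise at D6 was 1.19 ± 0.13 (adjusted p = 1.23e-05), 0.98 and no longer a call without D4 replicate 1, and the rise at D8 was 1.53 ± 0.13 (adjusted p = 6.79e-07). Hsd17b4, the second peroxisomal bifunctional enzyme, was highest in D6 at 35 and 36.1 FPKM and was called in none of the 9 comparisons.

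**Figure D4:**
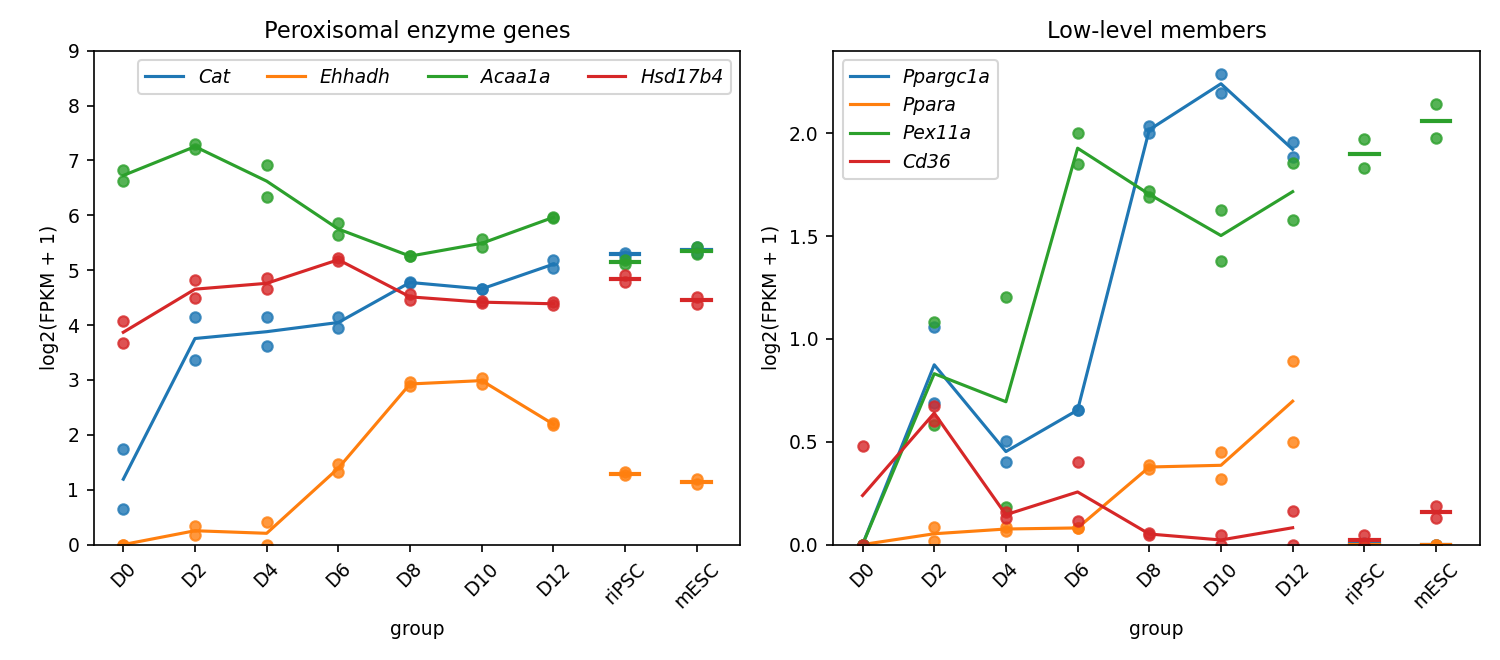
Levels of 4 peroxisomal enzyme genes (left) and of 4 members with low levels (right) as log2(FPKM + 1) by group, with 1 point per library, a line through the group means of the course and bars at the means of riPSC and mESC. Ppargc1a is high from D8 to D12 and at or near 0 in D0, riPSC and mESC, and Cd36 and Ppara stay under 1 FPKM.

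Of 20 other tested genes of peroxisomal oxidation and ether lipid synthesis, 9 rose and 1 fell at D2, 1 rose and 0 fell at D4, 4 rose and 0 fell at D6, 4 rose and 2 fell at D8, 0 were called at D10 and 1 rose at D12. Abcd3, the ABC transporter PMP70 of the peroxisomal membrane, measured 5.25 and 5.66 FPKM in D0, 14.6 and 12.8 FPKM in D6, 37.2 and 37 FPKM in D8, 57 and 54.2 FPKM in D12 and 8.88 and 8.45 FPKM in riPSC. All D8, D10 and D12 libraries lay above all others. Phyh, which starts the alpha-oxidation of phytanic acid, rose at D8 and was high in riPSC too, with 8.96 and 8.72 FPKM in D6, 32.1 and 31.8 FPKM in D8 and 34.4 and 40.2 FPKM in riPSC.

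The 3 peroxins, proteins that build peroxisomes, were at lower levels. Pex5, the receptor that imports enzymes with a C-terminal signal, measured 9.29 and 10.5 FPKM in D0, 26.6 and 26.9 FPKM in D8 and 17.9 and 19.2 FPKM in riPSC, with no step past 2-fold. Pex11a, which promotes division of the organelle, was listed at 0 in both D0 libraries and measured 0.136 and 1.31 FPKM in D4, 3.01 and 2.61 FPKM in D6 and 2.93 and 2.55 FPKM in riPSC. Its rise at D6, 1.23 ± 0.26 (adjusted p = 0.00208), was 0.72 and not called without D4 replicate 1, which was the lower of an uneven pair. Pex7, the receptor for the second import signal, had uneven pairs in several groups, with 3.98 and 6.52 FPKM in D6 and 1.82 and 1.87 FPKM in D4. Its call at D6 (1.11 ± 0.36, adjusted p = 0.0236) was lost without D4 replicate 1 (1.09), without D4 replicate 2 (1.12) and without D6 replicate 2 (0.81). Of 16 other peroxisome biogenesis and membrane genes, 3 rose at D2, 1 rose and 1 fell at D4 and 1 each rose at D6, D8 and D12, and 0 were called at D10.

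Of the regulators, Ppargc1a was called and Ppara could not be tested. Ppargc1a encodes the coactivator PGC-1 alpha, which is known to raise mitochondrial and fatty acid oxidation genes together with PPAR and ERR receptors. It was listed at 0 in both D0 libraries, was at 0.323 to 1.08 FPKM from D2 to D6, and measured 3 and 3.10 FPKM in D8, 3.58 and 3.88 FPKM in D10 and 2.69 and 2.89 FPKM in D12. In riPSC it was listed at 0 and 0.00683 FPKM and in mESC at 0 in both libraries. The rise at D8 was 1.36 ± 0.11 (adjusted p = 6.26e-07). Ppara, the receptor PPAR alpha, had 0.414 and 0.859 FPKM in D12, its highest group, and was listed at 0 in D0, riPSC and mESC. Since some mitochondrially encoded genes were listed at 0 in all 18 libraries, a value of 0 may be a failed estimate in these tables.

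Of 18 other tested regulators, 6 rose and 3 fell at D8, 4 rose at D2, and at D4, D6, D10 and D12 at most 1 did. The 3 that fell at D8 were Ppard (-1.32 ± 0.29), Rxrg (-1.12 ± 0.09) and Esrra (-1.08 ± 0.09). Ppard, the PPAR expressed most widely, measured 1.26 and 4.11 FPKM in D0, 13.7 and 11.7 FPKM in D2, 27.5 and 26.8 FPKM in D6 and 4.12 and 4.04 FPKM in D12. Ppargc1b, the sister coactivator, measured 6.77 and 6.33 FPKM in D8 against 0.427 and 0.238 FPKM in D6, a rise of 2.51 ± 0.13. Prkaa2, a catalytic subunit of the energy sensor AMPK, measured 0.432 and 0.342 FPKM in D6, 5.15 and 5.26 FPKM in D8, 19.3 and 19.5 FPKM in D12 and 1.73 and 1.71 FPKM in riPSC. Esrrb, an orphan receptor that is also a naive pluripotency factor, measured 0.339 and 0.333 FPKM in D6, 33.1 and 28.6 FPKM in D8 and 248.6 and 214 FPKM in riPSC.

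Genes known from other tissues as PPAR targets peaked at different times. Of 8 tested, 2 rose at D2, 2 at D4 and 4 at D6 with 0 falling, 2 rose and 2 fell at D8, 1 rose and 1 fell at D10, and 1 rose and 4 fell at D12. Angptl4, a secreted lipase inhibitor, measured 2.37 and 3.39 FPKM in D0, 87.7 and 85.2 FPKM in D6 and 1.21 and 1.42 FPKM in D12. Plin2, a lipid droplet coat protein, measured 27.1 and 32.9 FPKM in D0, 243 and 252 FPKM in D6 and 92.6 and 87.1 FPKM in D12. Both were highest in D6. Vnn1, a pantetheinase, was highest in D12 at 97.4 and 97.3 FPKM, with 0.0373 and 0 FPKM in riPSC. The 6 hepatocyte markers summed to 8.27 to 8.29 FPKM in D12 and 13.8 to 14.4 FPKM in riPSC, with 1 to 4 listed at 0 in every group, Serpina1a in all 9. Apoa2 rose at D2 (1.12 ± 0.19) and D10 (1.11 ± 0.19) and was higher in riPSC than in mESC (3.70 ± 0.19), and Ahsg rose at D8 (2.53 ± 0.14). Their part in the members' levels was not tested.

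In riPSC against D12, more members fell than rose. Of 28, 2 rose and 8 fell, where 19.8% and 16.7% of all genes did (36.5% in either direction), and the median log2 difference was -0.54, beside 0.06 for all genes. The 8 that fell were Fabp3, Acadl, Ppargc1a, Hadh, Etfdh, Acadvl, Hadhb and Decr1, and the 2 that rose were Echs1 and Eci1. With scaling to the nuclear sum, 3 rose and 6 fell, and the median of all genes moved to 0.33. Of all genes, that scaling called 4593 higher and 2099 lower, where the values as deposited gave 3253 and 2747, and median-of-ratios scaling gave 2592 and 3111. Fabp3 fell by 2.68 ± 0.12 (adjusted p = 9.67e-10), Acadl by 1.99 ± 0.18 (adjusted p = 6.42e-07) and Hadh by 1.52 ± 0.23 (adjusted p = 9.32e-05). Each of these kept its call in every alternative tried and without any 1 library. The call of Decr1 (-1.06 ± 0.12) was lost without riPSC replicate 1 (-0.99) and with scaling to the nuclear sum (-0.71), and that of Hadhb (-1.08 ± 0.14) with the same scaling (-0.70).

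Both members that rose, Echs1 by 1.35 ± 0.15 (adjusted p = 5.33e-06) and Eci1 by 1.43 ± 0.16 (adjusted p = 7.22e-06), kept the call in every alternative tried. The endoderm markers summed to 8.86 to 10.3 FPKM in riPSC, against 853 to 876 FPKM in D12. The fibroblast markers summed to 85.4 to 91.1 FPKM in riPSC, against 794 to 812 FPKM in D12, and the mitochondrially encoded share was 28.1% and 27.0% in riPSC, against 62.3% and 62.1% in D12. Their part in these differences was not tested. Of the wider lists, 1 of 16 other peroxisome biogenesis genes fell and 0 rose, 3 rose and 5 fell of 20 genes of peroxisomal oxidation, and 3 rose and 2 fell of 24 other mitochondrial oxidation genes. Slc22a5 fell by 2.59 ± 0.22, Abcd3 by 2.55 ± 0.11 and Prkaa2 by 2.91 ± 0.08 in that comparison. Of 11 fatty acid synthesis genes, 3 rose and 1 fell, and of 21 nuclear genes of the respiratory chain and ATP synthase 0 were called.

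**Figure D5:**
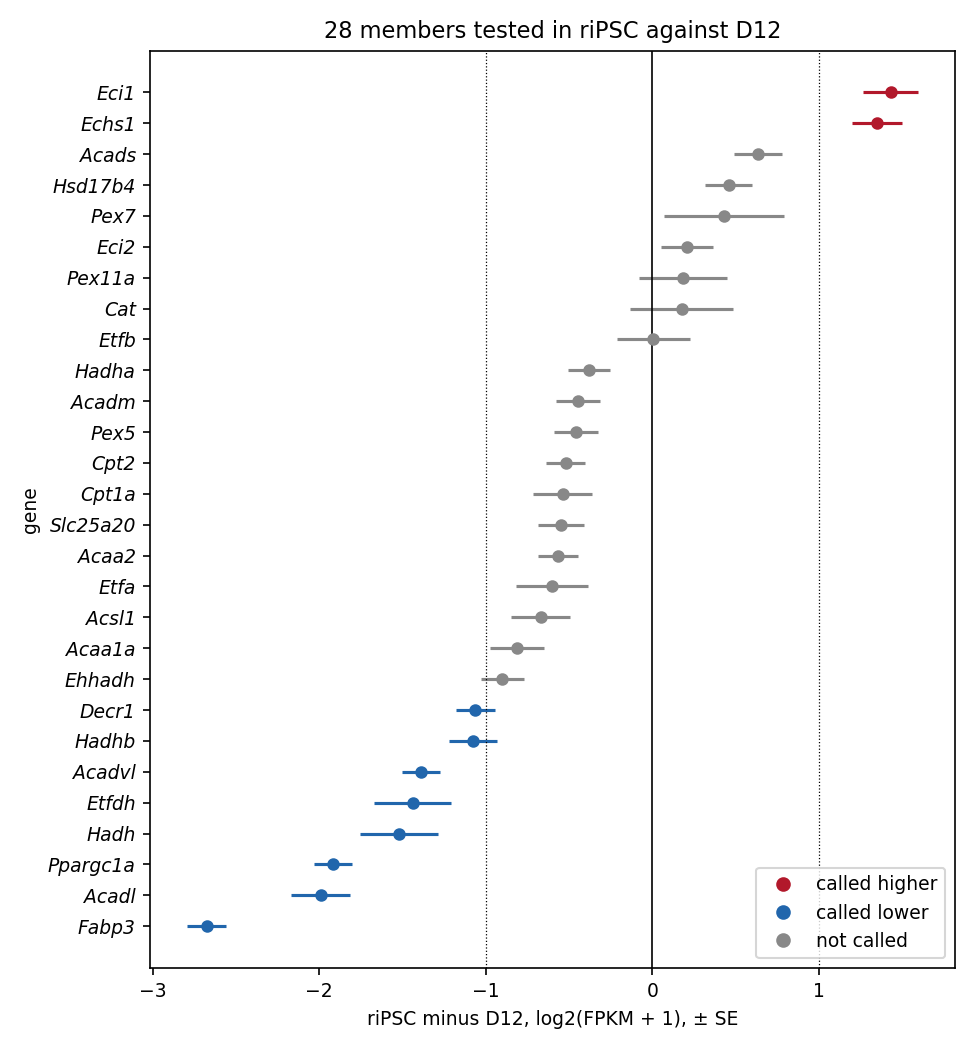
Log2 difference of each of the 28 tested members in riPSC against D12, as riPSC minus D12 on the log2(FPKM + 1) scale, with the SE of the fit and dotted lines at a 2-fold difference. Fabp3 lies lowest at -2.68 and Eci1 highest at 1.43, 8 members are called lower and 2 higher.

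In riPSC against D0 the comparison spans the whole course. Of 28 members, 13 rose and 4 fell, where 40.1% and 13% of all genes did (53.1% in either direction), with a median log2 difference of 0.91 beside 0.62 for all genes. By median of ratios the members' median was 0.20, beside 0.19 for all genes, and with the length trend removed it was 0.17, so the excess over all genes depended on the scaling. The median of all genes depends on the scaling: it was 0.19 by median of ratios, 0.79 by the nuclear sum, -0.01 by quantiles and -0.07 with the length trend removed. The members split 9 higher and 6 lower by median of ratios and by quantiles, 15 and 3 by the nuclear sum and 8 and 8 with the length trend removed. Of all genes, the values as deposited gave 6595 higher and 2134 lower, median-of-ratios scaling 4804 and 3461 and scaling to the nuclear sum 7343 and 1789. Quantile normalization called 3691 higher and 3509 lower, and removal of the length trend 3662 and 3807.

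Cpt1a (4.42 ± 0.18, adjusted p = 3.73e-10), Cat (4.1 ± 0.31, adjusted p = 9.77e-08) and Fabp3 (3.86 ± 0.12, adjusted p = 2.96e-11) rose most. Acsl1, Hadh and Acadm rose by 2.97 ± 0.18, 2.89 ± 0.23 and 2.43 ± 0.13. These 6 kept their calls in every alternative tried. Ehhadh and Pex11a were also called higher, from D0 libraries both listed at 0, so no fold is given, and both calls were lost at a pseudocount of 5. That of Ehhadh was also lost with quantile normalization and with the length trend removed. Etfb (-2.06 ± 0.22), Acadvl (-1.94 ± 0.11) and Acaa1a (-1.58 ± 0.16) fell in every alternative tried. Acaa2 fell by 1.25 ± 0.12, and by 0.99 with scaling to the nuclear sum, short of a call.

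The remaining 5 calls likewise depended on the scaling. With median-of-ratios scaling Slc25a20 was 0.61, Echs1 0.60, Eci1 0.34 and Etfa 0.63, none of them called, against 1.30 ± 0.14, 1.34 ± 0.15, 1.07 ± 0.16 and 1.36 ± 0.21 as deposited. Etfa was 0.90 and lost its call without D0 replicate 1. Etfdh, at 1.83 ± 0.23 as deposited, was 0.73 by quantiles and with the length trend removed. Acadl and Decr1 were called lower by median of ratios, at -1.41 and -1.17, and Acadl also without D0 replicate 1 (-1.06), where the values as deposited gave -0.72 ± 0.18 and -0.49 ± 0.12. Fibroblast markers summed to 85.4 to 91.1 FPKM in riPSC, against 725 to 1160 FPKM in D0. Muscle and myeloid markers were also lower in riPSC, at 19.4 to 20.1 and 15.2 to 16.2 FPKM in riPSC, against 362 to 483 and 104 to 116 FPKM in D0, and their part was not tested.

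In riPSC against mESC 1 member was called. Of 28, 1 was higher and 0 lower, where 1.84% and 1.2% of all genes were (3.04% in either direction). Fabp3 measured 235 and 233 FPKM in riPSC, against 64.5 and 64.9 FPKM in mESC, a log2 difference of 1.84 ± 0.12 (adjusted p = 6.84e-07). This call held in every alternative tried. Cpt1a came next, with 37.6 and 39.98 FPKM in riPSC against 18.8 and 19.98 FPKM in mESC and a difference of 0.96 ± 0.18 (adjusted p = 0.00342), short of 2-fold. It was called without riPSC replicate 1 (1.01), without mESC replicate 2 (1.00) and with quantile normalization (1.01), so the count was then 2. The other 26 members had differences between -0.42 ± 0.12 (Acaa2) and 0.51 ± 0.16 (Eci1), which does not show that they were alike. Both groups grew on feeder cells, and fibroblast markers summed to 85.4 to 91.1 FPKM in riPSC and 150 to 163 FPKM in mESC. Their part was not tested.

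Promoter letters were described for the members as a whole. RefSeq had 30 promoters for 27 of the members, and motifs were searched in the 250 bases before the start, on both strands. The hexamer AGGTCA was in 6 of 30 (20%) and in 14% of all 32851 promoters. The members that hold it are Acadm, Acadvl, Cat, Cd36, Cpt1a and Echs1, which include genes that rose, genes that fell and one that stayed under 1 FPKM. The GC box GGGCGG was in 19 of 30 (63.3%) and in 32.7% of all promoters. All promoters include those of genes that did not pass the filter, and no share was taken over the tested genes alone. Both longer motifs contain the hexamer: the ERR element TCAAGGTCA was in 0 of 30 and 0.387% of all promoters, and DR1, the PPAR-type direct repeat of the hexamer with 1 base between its copies, in 0 of 30 and 0.0335%. That these letters are missing from this window shows nothing about the receptors.

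Of 11 fatty acid synthesis genes, 8 rose and 0 fell in riPSC against D0, 5 rose at D2 and 4 at D8, where 40.1%, 19.5% and 15.1% of all genes rose. The median of the list in riPSC against D0 was 2.40 as deposited, 1.80 by median of ratios and 1.56 with the length trend removed. Scd1, the desaturase that makes monounsaturated fatty acids, measured 80.4 and 85.8 FPKM in riPSC and 2.25 and 2.97 FPKM in D0, and Acly, which supplies cytosolic acetyl-CoA, 153 and 159 FPKM in riPSC and 12.7 and 19.6 FPKM in D0. Of 21 nuclear genes of the respiratory chain and ATP synthase, 6 rose and 3 fell in riPSC against D0, 2 rose at D2 and 0 were called in the other steps of the course.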

How the data were processed

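RNA-seq libraries of 9 groups, 2 each, were sequenced with reads of 150 bp. The deposited values are FPKM per gene for each library, made by the authors with fastp 0.20.1, HISAT2 2.2.1 and StringTie 2.0 on mm10, per the submitters' processing notes. Settings, annotation release and use of strand are not given in the sources used here. Ensembl identifiers were matched to GENCODE symbols.

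The values were tested as log2(FPKM + 1) with limma 3.58.1 in R 4.3.3, on 16439 genes at 1 FPKM or more in at least 2 libraries. One mean was fitted per group over all 18 libraries, with 9 residual degrees of freedom. Tests were two-sided, and p-values were adjusted by Benjamini-Hochberg over all genes within a comparison. Calls needed an adjusted p below 0.05 together with a change of 2-fold or more. FPKM are not counts, so no count test was run. The fit was tested on simulated data. Other genes were named as the called genes with the largest change in each pathway list, 4 at most per list and comparison. A few of them are not reported here. The members and lists were chosen with earlier results of these data known. The alternatives were pseudocounts, filters, scalings, fits and leaving out each library in turn. One fit that leaves out D0, D2 and D4 was added after seeing the data. Promoter sequences are from RefSeq, GRCm38.p6.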

Additional observations from a re-analysis of the deposited data

How the results depend on the processing

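Of 50 calls of members, 21 held in every alternative and without any 1 library, and 10 were lost without 1 library. The number of members called in D2 against D0 was 6, against 10 at a pseudocount of 0.1, 3 with quantile normalization or the length trend removed, 0 with only the libraries compared and 17 with no fold threshold. In D4 against D2 it was 3, against 0 at a pseudocount of 5, 1 with only the libraries compared and 11 with no fold threshold. In D6 against D4 it was 7, against 3 at a pseudocount of 5, 4 with quantile normalization and 16 with no fold threshold. In D8 against D6 it was 4, against 1 at a pseudocount of 5 and 19 with no fold threshold. In D12 against D10 it was 2, against 1 at a pseudocount of 0.1 and 15 with no fold threshold. With no fold threshold it was 23 in riPSC against D12 and 4 in riPSC against mESC. There quantile normalization gave 2, and called 440 of all genes, where the values as deposited gave 500. Of the 16439 genes tested, 8833 were called at D2 without that threshold, 5142 at D4 and 7862 at D6. The same count was 9324 at D8, 5822 at D12, 10585 in riPSC against D12 and 2076 against mESC. A pseudocount of 0.1 called 6326 genes at D2 and 2721 at D12. A pseudocount of 5 called 620 at D4, 1318 at D6 and 1966 at D8. Ppargc1a in riPSC against D0 was 0.00, and -1.03 with the length trend removed. It was listed at 0 in both D0 libraries and at 0 and 0.00683 FPKM in riPSC. That step subtracts an amount set by gene length from values of 0 as well, so the -1.03 is not a difference in level. Beyond the fold threshold, which was simply taken away, the cause of the changes in these counts was not tested. Leaving out each library gave 4 to 7 calls in D2 against D0, 2 to 4 in D4 against D2, 3 to 8 in D6 against D4, 4 in D8 against D6, 0 in D10 against D8, 2 in D12 against D10, 9 to 10 in riPSC against D12, 17 to 18 against D0, 1 to 2 against mESC and 27 over the 9 groups. Same-numbered libraries showed no large shared deviation: over 36 pairs of groups the correlation of replicate differences ran from -0.227 to 0.266, with 5 over 0.1. Whether such libraries share a culture or batch cannot be told from these correlations. A replicate block changed no call of a member, with 17 members called in riPSC against D0. Levels near 0 limit Cd36, Ppara and the early values of Ehhadh, Pex11a and Ppargc1a.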
